A study of Mus musculus with 24 samples.

Results

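Quadriceps muscle of sedentary 4-week-old mice was compared between corrected delEx44 mice and delEx44 mice. Of the 24 RNA libraries of the study, 6 enter the comparison, 3 per group. They were taken by their labels and matched to the columns of the count table by the sample names in its header. All mice were of the C57BL/6 strain, and each library is labelled as a separate sample. The corrected mice carry the deletion of Dmd exon 44 and received, on postnatal day 4, an intraperitoneal injection of AAV9 vectors for a guide RNA (self-complementary, scAAV9-sgRNA) and for the nuclease (single-stranded, ssAAV9-SpCas9), each at 8e13 vector genomes per kg. The delEx44 mice carry the same deletion and are labelled without CRISPR-Cas9 treatment. Levels in 3 libraries of untreated WT mice of the same age are given beside both groups for orientation. The labels name no control vector, no promoter of the vectors and no sex (not given in the sources used here), so an effect of the injection or of AAV9 itself cannot be told apart from that of the edit. The labels do not say whether littermates or cage mates were shared. P-values measure the spread between libraries of a group, estimated from 15 libraries fitted together. These include the WT libraries and 6 libraries of older mice that ran downhill, which are outside the comparison.

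Dystrophin is a long rod-shaped protein that ties the actin cytoskeleton of the muscle fibre to a complex of membrane proteins and, through it, to laminin in the basement membrane. Without it the fibre membrane tears during contraction, fibres die and regenerate in rounds, and macrophages, other leukocytes and matrix-producing fibroblasts gather in the tissue. Genome editing of an out-of-frame DMD mutation aims to restore the reading frame by reframing or skipping a neighbouring exon. Polyadenylated RNA of whole muscle was counted per gene, so a difference in level can stem from more or fewer cells of a type or from more or less RNA per cell, and these cannot be told apart.

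The deleted exon and the frame across the gap are shown because they define the mutation, as annotated in GENCODE vM21 on GRCm38. Dmd (chrX:82948870-85206141, plus strand) has 79 exons in transcript Dmd-203, with a reading frame of 3678 codons. Exon 44 lies at chrX:84022265-84022412, and its 148 bases leave a remainder of 1 on division by 3. Its sequence, 5′ to 3′, is given next, followed by the end of exon 43 (30 bases) joined to exon 45 up to the stop codon that the shifted frame meets at base 47 of exon 45, with that stop in capitals.
exon 44: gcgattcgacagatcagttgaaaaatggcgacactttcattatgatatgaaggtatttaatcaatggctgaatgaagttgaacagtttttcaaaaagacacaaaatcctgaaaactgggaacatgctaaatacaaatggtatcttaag
exon 43 joined to exon 45: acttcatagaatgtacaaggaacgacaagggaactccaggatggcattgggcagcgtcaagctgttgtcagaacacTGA
On the annotated transcript the frame without exon 44 ends after 2114 codons. Exons 44 and 45 together have 324 bases, a multiple of 3, so a transcript that lacks both keeps the annotated stop. Counts per gene do not show which exons the reads cover, and neither the deletion nor the edit can be read from them.

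Dmd transcript itself stood far higher after the correction. Its level was 155, 156 and 172 CPM in corrected muscle, 36.1, 41.8 and 41.2 CPM in delEx44 muscle and 239.6, 208 and 204 CPM in WT muscle. All 3 corrected libraries were above all 3 delEx44 libraries and below all 3 WT libraries. The log2 fold change, corrected minus delEx44, was 2.02 ± 0.082 (edgeR quasi-likelihood test with Benjamini-Hochberg adjustment, adjusted p = 2.9e-08), the smallest p-value among the 15013 genes tested. CPM, the unit of level here, are counts relative to the total of each library after scaling with its TMM factor, in parts per 1e6, errors on CPM are SD over 3 libraries and errors on log2 fold changes are standard errors of the fit. A gene is said to have risen or fallen in corrected muscle only where its adjusted p was under 0.05. Utrn, the autosomal relative of dystrophin that occupies the same complex in immature fibres, was at 70.7, 66.97 and 73.6 CPM in corrected muscle and 71.96, 69.3 and 60.6 CPM in delEx44 muscle, with overlapping groups and a log2 difference of 0.065 ± 0.074 (adjusted p = 0.5). With counts scaled by library size alone it was −0.26 (adjusted p = 0.017).

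**Figure D1:**
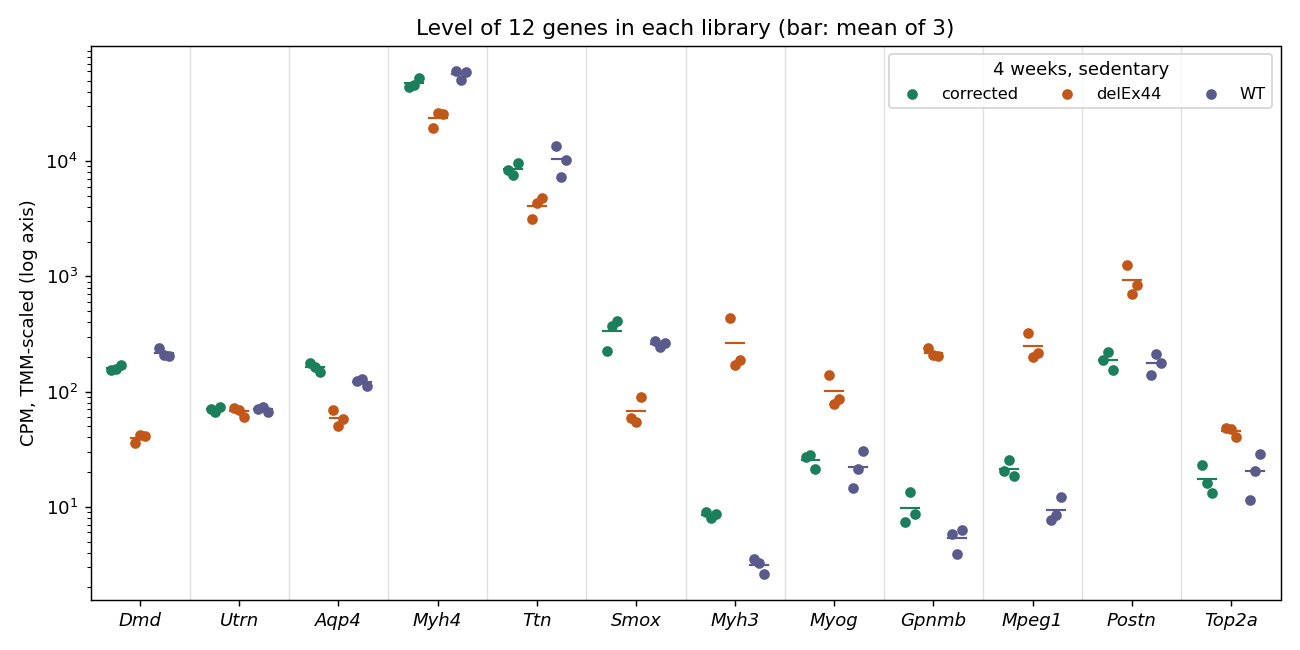
Level of 12 genes in each sedentary 4-week library, in TMM-scaled CPM on a log axis, with corrected, delEx44 and WT libraries as points and their mean as a bar. Dmd in the corrected libraries (155, 156 and 172 CPM) sits between delEx44 (36.1, 41.8 and 41.2 CPM) and WT, Utrn overlaps in all groups, Myh4, Ttn, Aqp4 and Smox are higher and Myh3, Myog, Gpnmb, Mpeg1, Postn and Top2a lower in corrected than in delEx44 muscle.

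The libraries held 33288973 to 37935674 counts in genes in corrected and 36223003 to 38090522 in delEx44 muscle. The 10 most abundant genes took 23.5% to 24.6% of the counts in corrected, 16.3% to 19.1% in delEx44 and 24.4% to 26.3% in WT libraries. TMM factors were 0.911 to 0.976 in corrected and 1.13 to 1.24 in delEx44 libraries. The typical distance (root mean square log2 difference over genes) between corrected and delEx44 libraries was 0.669 to 0.884, against 0.347 to 0.381 among corrected and 0.323 to 0.346 among delEx44 libraries. WT replicate 3 stood apart from the other WT libraries (0.621 and 0.635, against 0.362 between those), and WT levels are therefore given per library where they matter. No 2 libraries of a group agreed within counting noise. Acta1 and Myh4, which define skeletal muscle fibres, were among the most abundant genes of all libraries.

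Of 15013 genes tested, 6945 passed (46.3%), with 3313 higher (22.1%) and 3632 lower (24.2%) in corrected muscle. The falls were the larger changes: 1303 genes fell by at least 1 log2 unit (8.68%) and 251 rose by as much (1.67%). The median log2 fold change over all genes was −0.0073, and the middle 50% lay between −0.36 and 0.26. The libraries of corrected and delEx44 muscle did not overlap for 8812 genes (58.7%). List members named below include those of smallest p in their list, so separation of their groups is partly set by the choice. With library size alone in place of TMM, a scaling added after the data were seen, the median moved to −0.33, 869 genes were higher and 7722 lower. Changes below are on the TMM scale, and list counts under library size alone stand beside those that it turns. Among the genes named below as risen, Ackr3, Adamts1, Capn1, Chrne, Cox7a1, Cox8b, Dysf, Flt1, Hk2, Lifr, Lyz1, Mef2c, Mef2d, Mybph, Myh1, Myh2, Myh7b, Mylpf, Nnat, Nrap, Plec, Syngr1 and Vegfb did not pass under that scaling.

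Among the largest rises, by the rule for named genes, were several genes of the adult fibre and its metabolism. Smox, the spermine oxidase, was at 223, 374 and 410.1 CPM in corrected muscle, 59.2, 54.3 and 89.97 CPM in delEx44 muscle and 273, 242 and 263 CPM in WT muscle (2.31 ± 0.24 log2, adjusted p = 2.7e-05). Ppp1r1a, an inhibitor of protein phosphatase 1 (chr15:103530279-103538003), was at 32.3, 33.4 and 31.6 CPM in corrected muscle and 5.02, 8.31 and 5.49 CPM in delEx44 muscle (2.37 ± 0.18). Mylk4, a myosin light chain kinase, was at 423, 552 and 1078 CPM in corrected muscle and 138, 198 and 209.8 CPM in delEx44 muscle (1.91 ± 0.36), and corrected replicate 3 was the highest. The rule for the largest changes took only genes whose corrected and delEx44 libraries did not overlap. Separation of the groups in these genes was therefore set by the choice. Also among the largest rises were the lysine methyltransferase of muscle Mettl21c (107 against 26.6 CPM, 2.01 ± 0.34), the zinc transporter Slc30a2 (10.8 against 1.65 CPM, 2.71 ± 0.47), the carboxylesterase Ces1d (25.5 against 4.44 CPM, 2.53 ± 0.43) and Tph1, a tryptophan hydroxylase (12.3 against 2.77 CPM, 2.15 ± 0.21). Ces1d belongs to a cluster of similar genes, so its count is uncertain. The transcription factor Tfcp2l1 (2.03 ± 0.60, adjusted p = 0.018) and the imprinted Nnat (2.74 ± 1.01, adjusted p = 0.0494) rose too, but their calls depended on the libraries and the method. With limma-voom neither passed (adjusted p = 0.11 and 0.10). Nnat also failed with upper-quartile scaling (0.051) or no filter on low counts (0.069). Tfcp2l1 lost its call without corrected replicate 3 (adjusted p = 0.081) or delEx44 replicate 1 (0.071). Nnat did so without any 1 of the 6 libraries (0.11, 0.072 and 0.082 without corrected and 0.15, 0.059 and 0.13 without delEx44 replicates 1, 2 and 3).

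The genes described next were among the largest falls at a mean of at least 5 CPM in corrected or delEx44 muscle. Spp1, the secreted phosphoprotein osteopontin, was at 7.02, 4.46 and 4.49 CPM in corrected muscle, 246, 301 and 289 CPM in delEx44 muscle and 1.73, 3.36 and 122 CPM in WT muscle, with a log2 fold change of −5.702 ± 1.37 (adjusted p = 0.0074, with no p-value given by DESeq2). Gpnmb, a glycoprotein of lysosome-rich macrophages (chr6:49036546-49070929), was at 7.42, 13.4 and 8.74 CPM in corrected muscle, 239.6, 206 and 202 CPM in delEx44 muscle and 5.86, 3.899 and 6.34 CPM in WT muscle (−4.45 ± 0.32, adjusted p = 5.7e-06). Mmp12, the macrophage elastase, was at 0.918, 1.603 and 0.957 CPM in corrected muscle and 42.4, 37.4 and 26.6 CPM in delEx44 muscle (−4.93 ± 0.36). The rule took the largest falls among genes without overlap, so separation and its margin in these 3 genes were set by the choice. WT replicate 3 alone reached a high level of Spp1. Other falls of this size were found for Il1rn, the interleukin-1 receptor antagonist (0.451 against 14.8 CPM, −5.004 ± 0.52), the vacuolar proton pump subunit Atp6v0d2 (0.548 against 15.2 CPM, −4.78 ± 0.60), the inhibitory receptor Cd300lf (0.196 against 5.397 CPM, −4.75 ± 0.55), the interleukin-7 receptor Il7r (0.445 against 10 CPM, −4.46 ± 0.40), the G-protein regulator Rgs1 (0.143 against 5.38 CPM, −5.16 ± 0.50) and the neuropeptide galanin, Gal (0.258 against 6.17 CPM, −4.57 ± 0.47). Chil3, a chitinase-like protein of macrophages with close paralogs, was at 0.81, 0.525 and 0.528 CPM in corrected muscle and 19.2, 11.9 and 23.9 CPM in delEx44 muscle (−4.86 ± 1.43, adjusted p = 0.019). Its call was lost without corrected replicate 1, 2 or 3 (adjusted p = 0.0541, 0.062 and 0.063).

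Around dystrophin, transcripts of the membrane complex rose in part. Of 20 genes of the dystrophin-associated complex, 10 rose and 2 fell, with a median log2 fold change of 0.22. Dmd itself is a member and is counted among the rises. Aqp4, the water channel that syntrophin anchors at the fibre membrane, was at 176, 164 and 148 CPM in corrected muscle, 68.9, 50.6 and 57.3 CPM in delEx44 muscle and 124, 129 and 113 CPM in WT muscle (1.47 ± 0.16, adjusted p = 3.1e-05). All 3 corrected libraries of Aqp4 were above every WT library as well as every delEx44 library. Nos1, the neuronal nitric oxide synthase bound to the complex, was at 23.3, 29.6 and 26.8 CPM in corrected muscle and 10.7, 16.6 and 15.4 CPM in delEx44 muscle (0.90 ± 0.17). Alpha-sarcoglycan (Sgca) was at 221, 229.7 and 239 CPM in corrected muscle and 128, 153 and 147 CPM in delEx44 muscle (0.69 ± 0.079). Neither gene overlapped between the groups. Beta-sarcoglycan (Sgcb, 0.52 ± 0.060) and the cytolinker plectin (Plec, 0.43 ± 0.10) rose by less. Dag1, which encodes dystroglycan, did not pass (398 ± 13.2 against 371 ± 6.17 CPM, 0.1 ± 0.083), nor did dystrobrevin alpha (Dtna, 0.17 ± 0.082). The syntrophin Sntb2 fell (10.8 ± 0.688 against 16.1 ± 2.19 CPM, −0.58 ± 0.14). Under library size alone 5 members were higher and 6 lower, and the list's median turned to −0.10.

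Laminins and integrins, the other link of the fibre to its basement membrane, had fewer genes that passed: 6 of 26 fell, 3 rose and the median was −0.021. The falls were near the share over all genes (24.2% lower), and the rises were below it (22.1% higher). Scaled by library size alone, 15 were lower and 1 higher. There were 3 falls without delEx44 replicate 1 and 1 rise without corrected replicate 2. Itga7, the main laminin-binding integrin chain of muscle fibres, fell (119 ± 4.34 against 178 ± 24.7 CPM, −0.59 ± 0.12, adjusted p = 0.002), as did the fibronectin receptor chain Itga5 (27.5 ± 1.86 against 49.9 ± 4.98 CPM, −0.86 ± 0.13) and Itgav (−0.43 ± 0.058). Lama2, the laminin chain of the muscle basement membrane, was at 159 ± 9.45 against 142 ± 18.9 CPM and did not pass (adjusted p = 0.21). Lamc3, a laminin gamma chain, stood out at 4.81, 5.48 and 7.36 CPM in corrected muscle and 0.723, 1.498 and 0.683 CPM in delEx44 muscle (2.59 ± 0.29), with all corrected above all delEx44 libraries. Among 18 membrane repair genes 8 fell, among them myoferlin (Myof, 24.4 against 68.2 CPM, −1.48 ± 0.089) and the annexins Anxa1 (−1.41 ± 0.12), Anxa2 (131 against 331 CPM, −1.33 ± 0.15) and Anxa4 (−1.27 ± 0.10). Trim72, the muscle repair protein MG53, did not pass (0.16 ± 0.11). Capn1, a calpain (0.30 ± 0.064), and dysferlin (Dysf, 0.22 ± 0.079) were the 2 members that rose. Under library size alone their log2 fold changes were −0.02 and −0.096 and did not pass, and the call of Dysf was lost without delEx44 replicate 1 or 2 (adjusted p = 0.13 and 0.096) or without corrected replicate 1, 2 or 3 (0.073, 0.082 and 0.0525).

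Genes of embryonic and regenerating fibres were much lower in corrected muscle. Of 16 such genes 9 fell and 3 rose, with a median of −1.06 (10 and 1 under library size alone). Myh3, the embryonic myosin heavy chain (chr11:67078300-67102291), was at 9.07, 7.93 and 8.61 CPM in corrected muscle, 436, 169 and 189.7 CPM in delEx44 muscle and 3.56, 3.25 and 2.59 CPM in WT muscle (−4.96 ± 0.40, adjusted p = 1.2e-05). Corrected libraries were tightly grouped, far under every delEx44 library and above every WT library, and delEx44 replicate 1 held the highest level. Myl4, the atrial and embryonic myosin light chain, was at 9.504, 8.83 and 8.31 CPM in corrected muscle and 262, 73.7 and 144 CPM in delEx44 muscle (−4.17 ± 0.44). The perinatal myosin Myh8 was at 18.8, 17.5 and 15.4 CPM in corrected muscle and 257, 98.9 and 175 CPM in delEx44 muscle (−3.36 ± 0.32). Cardiac troponin T (Tnnt2, 7.43 against 70.05 CPM, −3.24 ± 0.34), the fetal acetylcholine receptor chain Chrng (1.29 against 23.1 CPM, −4.16 ± 0.39) and the adhesion molecule Ncam1 (15.04 against 41.8 CPM, −1.47 ± 0.18) fell as well. The members that rose encode sarcomere proteins or their partners, cardiac actin (Actc1, 7347 ± 542 against 3169 ± 661 CPM, 1.21 ± 0.26), the myosin-binding protein Mybph (0.70 ± 0.15) and Nrap (0.49 ± 0.17, adjusted p = 0.035). The call of Nrap was lost without delEx44 replicate 1 or 2 (0.15 and 0.0531) or corrected replicate 3 (0.17).

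Satellite cells and myoblasts are the precursors of new fibres, and their list had about the shares of rises and falls found over all genes. Myogenin (Myog), which drives myoblast differentiation, was at 27, 28.1 and 21.4 CPM in corrected muscle, 140, 77.7 and 86.7 CPM in delEx44 muscle and 14.7, 21.3 and 30.8 CPM in WT muscle (−1.99 ± 0.34, adjusted p = 0.00083). The fusion proteins myomaker (Mymk, listed as Tmem8c) and myomixer (Mymx, listed as Gm7325) join myoblasts to fibres. Tmem8c was at 6.32, 5.62 and 4.88 CPM in corrected muscle and 55.9, 26.1 and 32.2 CPM in delEx44 muscle (−2.76 ± 0.39). Gm7325 was at 0.864, 0.903 and 0.561 CPM in corrected muscle and 15.5, 7.26 and 8.13 CPM in delEx44 muscle (−3.72 ± 0.41). In these 3 genes no corrected library reached any delEx44 library, as held for 30.4% of all genes tested. Myod1 fell too (20.5 against 49.4 CPM, −1.27 ± 0.24), whereas Pax7 was at 4.703 ± 0.647 against 5.01 ± 0.431 CPM (−0.094 ± 0.19, adjusted p = 0.71) and Myf5 at 2.52 against 3.399 CPM (−0.44 ± 0.18). Over the myogenic list 6 of 27 rose and 8 fell, against 2 and 15 under library size alone. Myostatin (Mstn), the inhibitor of muscle growth, was at 46.2, 56.2 and 67.3 CPM in corrected muscle and 26.7, 36.1 and 30 CPM in delEx44 muscle (0.87 ± 0.13). Its corrected libraries were all the higher ones. Also among those that rose were the transcription factors Mef2c (0.45 ± 0.097) and Mef2d (0.39 ± 0.081).

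Most imprinted growth genes were lower in corrected muscle. Of 19 tested 12 fell and 2 rose (median −0.78). H19, an imprinted long non-coding RNA, was at 3506, 3786 and 3827 CPM in corrected muscle, 6527, 6337 and 6257 CPM in delEx44 muscle and 4133, 4432 and 2722 CPM in WT muscle (−0.78 ± 0.17). Igf2, the fetal growth factor next to it, was at 78.2, 76.2 and 74.8 CPM in corrected muscle and 356, 254 and 259 CPM in delEx44 muscle (−1.92 ± 0.16). Peg10 was at 3.35, 3.03 and 2.94 CPM in corrected muscle and 16.1, 10.5 and 11.8 CPM in delEx44 muscle (−2.04 ± 0.15). The groups did not overlap in these 3 genes, and corrected H19 was within the range of WT. Grb10 (129.9 against 236 CPM, −0.86 ± 0.12), Peg3 (−0.86 ± 0.10), Plagl1 (−1.44 ± 0.14) and Zim1 (−0.97 ± 0.11) fell too, and the amino acid transporter Slc38a4 rose (301 against 158 CPM, 0.93 ± 0.15). Hmga2, a chromatin protein of embryonic growth, had 1, 0 and 1 counts in corrected and 113, 79 and 131 counts in delEx44 muscle, against 1, 1 and 3 in WT, and it fell (adjusted p = 3.4e-06). In the insulin-like growth factor list, to which Hmga2 belongs, 5 of 14 fell and 2 rose. Igf1 itself did not pass (138 ± 14.9 against 169 ± 15.3 CPM, −0.29 ± 0.21, adjusted p = 0.29), and the insulin receptor Insr rose (92.1 against 57.5 CPM, 0.68 ± 0.074).

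Transcripts of the mature contractile apparatus of fast fibres were higher in corrected muscle. All 18 of 18 fast fibre genes rose, with a median of 0.73. The number was 16 to 18 with 1 corrected or delEx44 library left out and 16 with no filter on low counts. The rise of Myh2 was lost without corrected replicate 1 or 3 (adjusted p = 0.065 and 0.1) or delEx44 replicate 1, 2 or 3 (0.076, 0.0513 and 0.098). Myh4, the heavy chain of type 2B fibres, was at 44220, 46080 and 52610 CPM in corrected muscle, 19350, 26050 and 25710 CPM in delEx44 muscle and 60370, 50390 and 59360 CPM in WT muscle (1.01 ± 0.15, adjusted p = 0.00013). Actn3, the fast alpha-actinin, was at 7224, 8149 and 8925 CPM in corrected muscle and 3492, 4349 and 4685 CPM in delEx44 muscle (0.96 ± 0.12). Atp2a1, the fast calcium pump of the sarcoplasmic reticulum, was at 24850, 25390 and 27190 CPM in corrected muscle and 12830, 16260 and 15700 CPM in delEx44 muscle (0.79 ± 0.11). Corrected libraries were higher in each, and for Myh4 corrected replicate 3 exceeded the lowest WT library. Acta1 (0.69 ± 0.10), Tpm1 (0.77 ± 0.11), Tnnt3 (0.78 ± 0.11), Ckm, the muscle creatine kinase (0.80 ± 0.11), and Ampd1, the muscle AMP deaminase (0.85 ± 0.12), rose, while the light chain Mylpf rose by less (0.37 ± 0.098). With library size alone 14 of the 18 still passed as higher and 0 as lower.

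**Figure D2:**
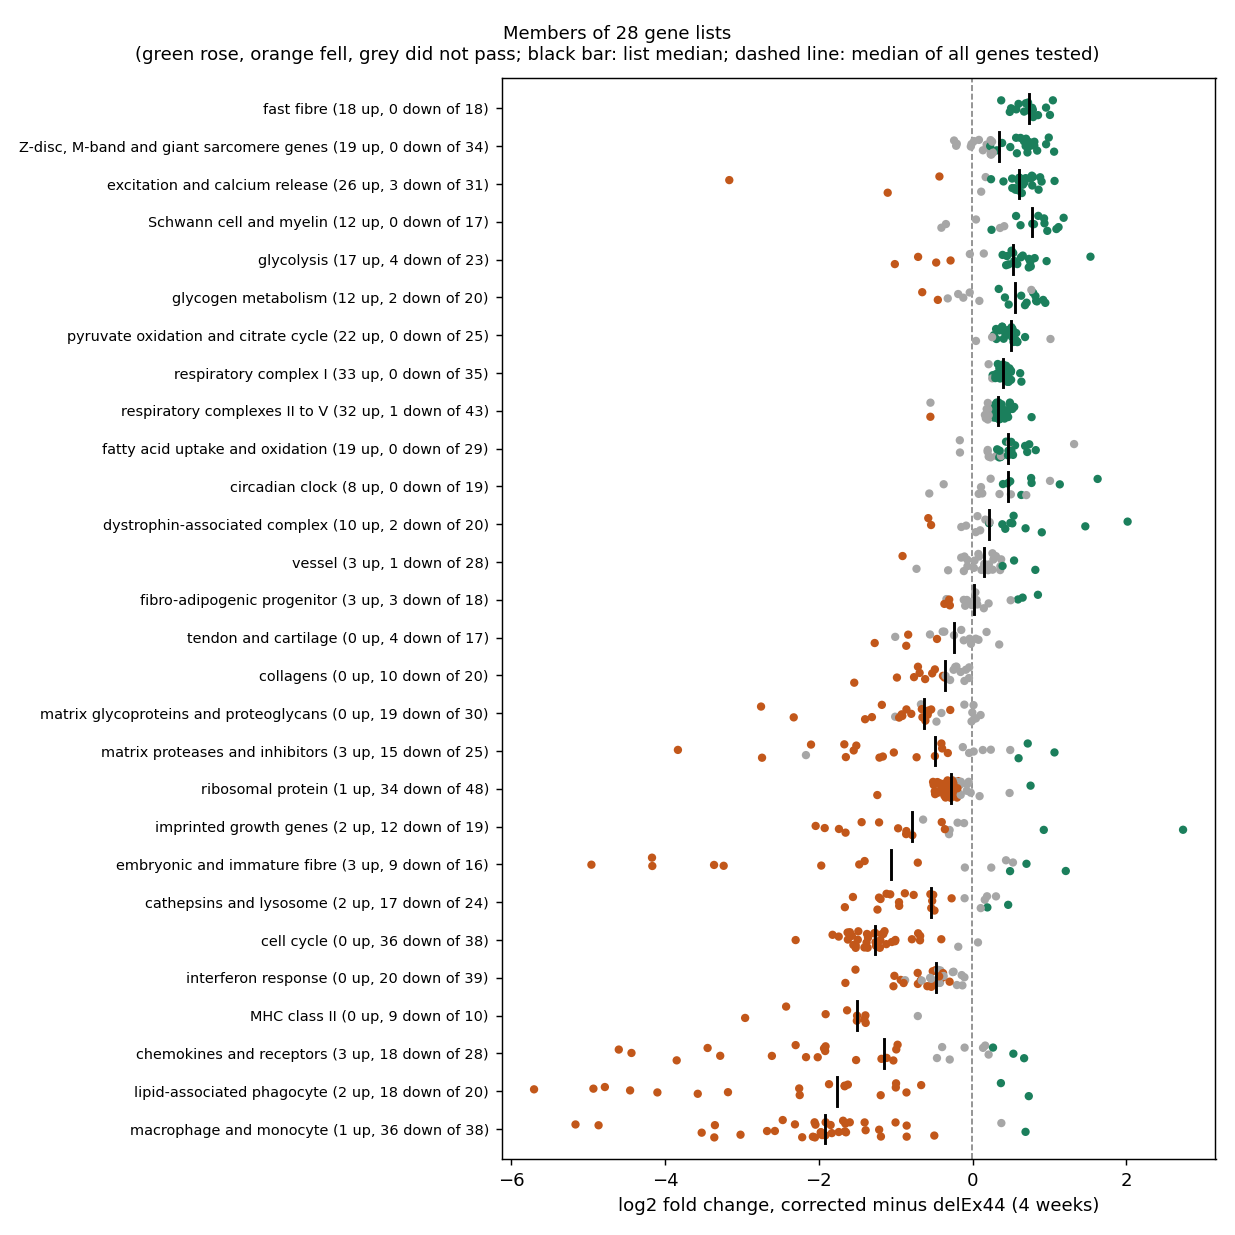
Log2 fold change, corrected minus delEx44, of each tested member of 28 gene lists (points; green rose, orange fell, grey did not pass), with list medians as black bars and the median of all genes as a dashed line. Fast fibre genes sit to the right (median 0.73), macrophage and monocyte genes (median −1.91) and cell cycle genes (median −1.26) to the left.

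Per kilobase of a gene's joined exons (union exon length), the shares of fast myosin heavy chains differed between the groups. The developmental share was far lower in corrected muscle. Of the reads per kilobase of 6 heavy chain genes, Myh4 held 86.3 ± 1.31% in corrected, 81.2 ± 3.43% in delEx44 and 89.2 ± 2.89% in WT muscle (SD, n = 3 each). The 3 corrected shares (85.1% to 87.7%) lay above the 3 delEx44 shares (77.5% to 84.3%). Myh1, the type 2X chain, held 11.5 ± 1.05% in corrected and 15.6 ± 2.42% in delEx44 muscle, again without overlap, although its level in CPM was higher (6723 ± 816 against 4751 ± 540.1 CPM, 0.50 ± 0.19, adjusted p = 0.0497). That rise in Myh1 was lost without corrected replicate 1 or 3 (adjusted p = 0.1 and 0.15) or delEx44 replicate 1, 2 or 3 (0.12, 0.15 and 0.0521). The Myh1 call was also lost with limma-voom (0.054), no filter on low counts (0.060) or a filter at 5 CPM (0.053). Myh2, the type 2A chain, held 2.02 ± 0.283% in corrected and 1.89 ± 0.448% in delEx44 muscle, with overlapping groups. Embryonic Myh3 was 0.0155 ± 0.00175% of the total in corrected and 0.961 ± 0.676% in delEx44 muscle. Perinatal Myh8 was 0.0161 ± 0.0029% in corrected and 0.325 ± 0.185% in delEx44 muscle. With the length of the longest transcript instead, the Myh8 share was 0.0306% in corrected and 0.613% in delEx44 muscle. These shares are descriptions with no test, since an exact permutation of 3 against 3 cannot reach a p below 0.1.

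**Figure D3:**
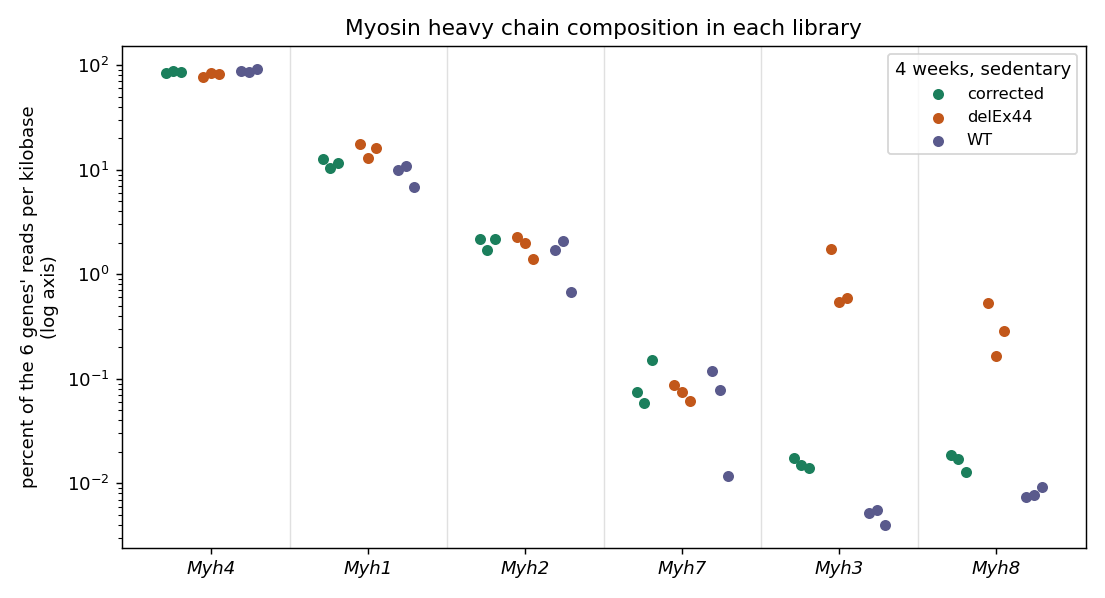
Share of each of 6 myosin heavy chain genes in their summed reads per kilobase, in percent on a log axis, for each corrected, delEx44 and WT library. Myh4 dominates in all libraries, and the Myh3 and Myh8 shares of delEx44 libraries (0.961% and 0.325% on average) stand well above those of corrected and WT libraries.

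Slow fibre genes did not move together: 2 of 13 rose and 3 fell. Without WT replicate 3, a library outside the comparison that shares its estimate of spread, 6 rose and 3 fell, and with only the 6 corrected and delEx44 libraries fitted 5 rose and 3 fell. Slow troponin I (Tnni1) was at 15.01, 10.9 and 28.1 CPM in corrected muscle and 159.6, 53.5 and 84.8 CPM in delEx44 muscle (−2.47 ± 0.66, adjusted p = 0.012). Its corrected libraries were all below the delEx44 ones. Myh7, the slow heavy chain, was at 56.2, 44.4 and 134 CPM in corrected muscle and 31.4, 32.9 and 27.9 CPM in delEx44 muscle and did not pass (1.34 ± 0.71, adjusted p = 0.15), with no overlap between the groups but a wide spread among corrected libraries. The other members that passed were Myh6, Myh7b, Casq2 and Atp2a2. The calls of Myh7b, Casq2 and Atp2a2 were lost without delEx44 replicate 1, at adjusted p-values of 0.0501, 0.11 and 0.16, and without corrected replicate 3 for Myh7b and Casq2 (0.0522 and 0.054). Casq2 and Atp2a2 also lost theirs without corrected replicate 1 (0.067 and 0.11) or 2 (0.095 and 0.15) and delEx44 replicate 3 (0.0535 and 0.0533), and Atp2a2 without delEx44 replicate 2 (0.057).

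Z-disc, M-band and giant sarcomere genes rose in 19 of 34 cases with 0 falls (median 0.35). Titin (Ttn), the molecular spring of the sarcomere, was at 8376, 7535 and 9572 CPM in corrected muscle and 3159, 4314 and 4743 CPM in delEx44 muscle (1.06 ± 0.23, adjusted p = 0.0027). Nebulin (Neb), the ruler of the thin filament, was at 6421, 6271 and 7467 CPM in corrected muscle and 3218, 4027 and 4009 CPM in delEx44 muscle (0.84 ± 0.13). Corrected libraries were above delEx44 libraries in both. The Z-disc protein Ldb3 (0.80 ± 0.10), Xirp2 (0.96 ± 0.10) and the myosin chaperone Unc45b (0.69 ± 0.074) rose, while desmin (Des, 2087 ± 129 against 2058 ± 211 CPM) and Fhl1 (1069 ± 119 against 1239 ± 193 CPM) did not pass. With library size alone 15 were higher, 3 lower and the median was 0.03.

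Excitation and calcium release genes were higher in 26 of 31 cases (median 0.60). Scn4a, the sodium channel of the fibre membrane, was at 374, 361 and 409.9 CPM in corrected muscle and 191, 221 and 202 CPM in delEx44 muscle (0.90 ± 0.10, adjusted p = 2.5e-05). Ryr1, the calcium release channel, was at 1917, 1886 and 2245 CPM in corrected muscle and 1017, 1159 and 1159 CPM in delEx44 muscle (0.86 ± 0.099). Its voltage sensor Cacna1s was at 699.8, 675 and 745 CPM in corrected muscle and 366, 457 and 429.7 CPM in delEx44 muscle (0.76 ± 0.091). The groups did not overlap for these genes. Rises were also found for the junctophilin Jph1 (0.88 ± 0.10), the chloride channel Clcn1 (0.77 ± 0.087), the adaptor Stac3 (0.76 ± 0.075) and the calcium-activated potassium channel Kcnma1 (1.07 ± 0.094). Among the 3 members that fell were sarcolipin (Sln), the small inhibitor of the calcium pump (1.57, 1.89 and 1.81 CPM in corrected muscle and 24.7, 9.74 and 12.8 CPM in delEx44 muscle, −3.16 ± 0.40) and the potassium channel Kcnn3, which denervated and immature muscle makes (4.92 against 10.6 CPM, −1.103 ± 0.24).

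Of 19 neuromuscular junction and denervation genes 4 were higher and 5 lower (0 and 8 under library size alone). The counts with TMM were near the shares over all genes (22.1% higher and 24.2% lower). The higher genes numbered 2 without delEx44 replicate 1. Several that fell are known to be made along the fibre when innervation is lost or the fibre is young, among them Chrna1 (50.3, 44.6 and 41.6 CPM in corrected muscle and 169, 86.8 and 102 CPM in delEx44 muscle, −1.39 ± 0.20), Chrnd (4.81 against 15.3 CPM, −1.67 ± 0.22) and Runx1 (5.62 against 27.1 CPM, −2.27 ± 0.22). Corrected and delEx44 libraries of Chrna1 did not overlap. Of the genes of the mature synapse, Musk (0.074 ± 0.22), Rapsn (−0.035 ± 0.075) and Agrn (−0.0063 ± 0.12) did not pass, and the adult receptor chain Chrne rose by 0.35 (adjusted p = 0.0031).

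Some gene families have a muscle form and a broadly expressed or fetal form, and pairs of these are described next. The 13 pairs shown were chosen after their values were seen, so their number says nothing about families at large. Ribosomal protein L3 (Rpl3) was at 64.04, 65.9 and 54.5 CPM in corrected muscle and 163, 129 and 143 CPM in delEx44 muscle (−1.24 ± 0.12, adjusted p = 7.7e-06). Its muscle form Rpl3l was at 443, 459 and 498 CPM in corrected muscle and 256, 277 and 297 CPM in delEx44 muscle (0.75 ± 0.089, adjusted p = 3.1e-05). Corrected libraries were below delEx44 libraries for the first gene and above them for its muscle form. The elongation factors showed the same split, with Eef1a1 at 501 ± 41.7 against 1123 ± 153 CPM (−1.17 ± 0.11) and Eef1a2 at 1122 ± 70.8 against 728 ± 66.6 CPM (0.62 ± 0.089). So did the alpha-actinins Actn1 (−1.05 ± 0.060) and Actn3, the phosphoglycerate mutases Pgam1 (−1.01 ± 0.19) and Pgam2 (0.73 ± 0.086), the hexokinases Hk1 (−0.71 ± 0.089) and Hk2 (0.54 ± 0.13), the phosphofructokinases Pfkp (−0.47 ± 0.083) and Pfkm (0.63 ± 0.11) and the actins Actb (−0.71 ± 0.16) and Acta1. Chrng and Chrne differed in the same way. In 3 further pairs the fall of the broad form was lost without single libraries. The muscle forms Pygm (0.92 ± 0.11), Slc2a4 (0.81 ± 0.12) and Cox8b (0.43 ± 0.10) rose. Without delEx44 replicate 1 the adjusted p was 0.12 for Pygb, 0.1 for Slc2a1 and 0.078 for Cox8a, without corrected replicate 2 it was 0.089, 0.11 and 0.0547, and without corrected replicate 3 it was 0.12, 0.11 and 0.072. Pygb also lost its call without corrected replicate 1 (0.057) or delEx44 replicate 2 (0.098). Cox6a1 (−0.55 ± 0.22, adjusted p = 0.066) and Cox7a2 (0.16 ± 0.10, adjusted p = 0.21) did not pass, whereas their muscle forms Cox6a2 (0.77 ± 0.078) and Cox7a1 (0.54 ± 0.11) rose.

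**Figure D4:**
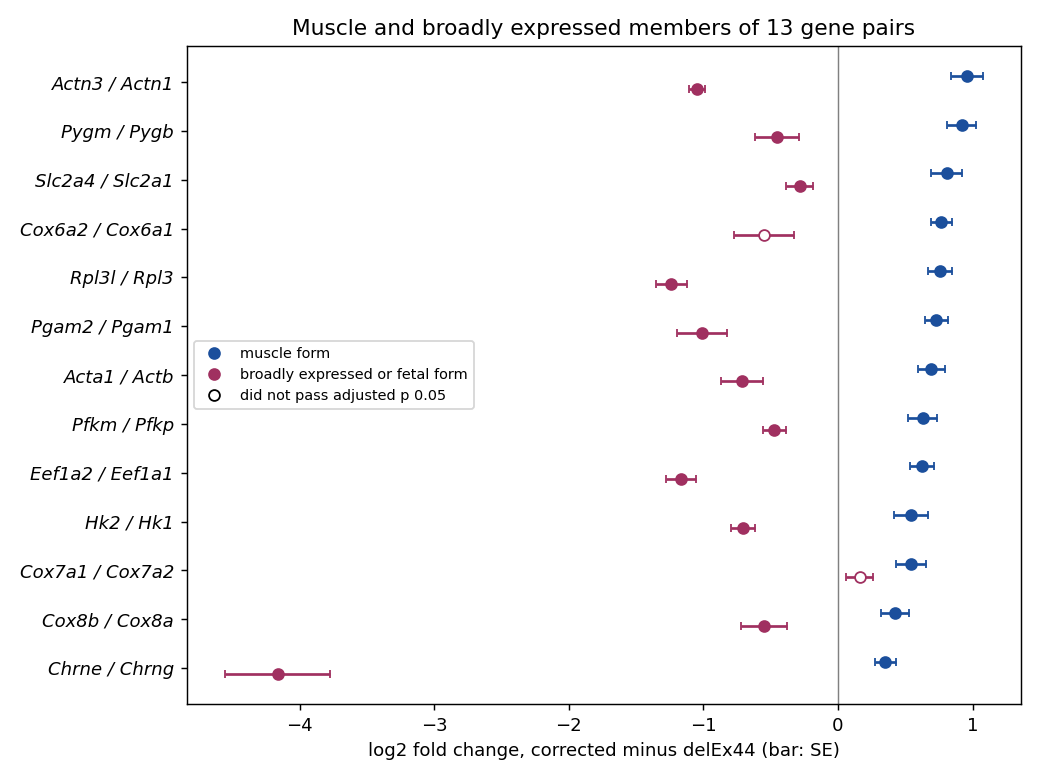
Log2 fold change, corrected minus delEx44, with standard errors, of the muscle form (blue) and of the broadly expressed or fetal form (purple) of 13 gene pairs chosen after their values were seen. All 13 muscle forms lie above 0, and open symbols (Cox6a1 and Cox7a2) did not pass.

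Many genes of energy metabolism rose in corrected muscle. In glycolysis 17 of 23 genes rose and 4 fell (median 0.53), the falls being the broadly expressed Pgam1, Hk1, Pfkp and Slc2a1. Aldolase A (Aldoa) was at 17140, 19420 and 19160 CPM in corrected muscle and 10170, 10660 and 12660 CPM in delEx44 muscle (0.73 ± 0.11). Pfkfb3, which makes the activator of phosphofructokinase, was at 277, 377 and 174 CPM in corrected muscle and 73.4, 109 and 104 CPM in delEx44 muscle (1.53 ± 0.35). Corrected libraries were above delEx44 libraries for both. In glycogen metabolism 12 of 20 rose and 2 fell, with muscle phosphorylase Pygm at 6463, 7273 and 7961 CPM in corrected muscle and 3350, 3916 and 4211 CPM in delEx44 muscle (0.92 ± 0.11), and the phosphorylase kinase subunits Phka1 (0.95 ± 0.11) and Phkb (0.84 ± 0.099) among the rises. Pyruvate oxidation and the citrate cycle had 22 rises and 0 falls in 25 genes (median 0.50), as for citrate synthase (Cs, 1066 ± 44.3 against 712 ± 45.8 CPM, 0.58 ± 0.087) and the pyruvate dehydrogenase kinase Pdk2 (0.68 ± 0.069). Under library size alone the citrate cycle list had 11 rises (median 0.18) and glycolysis 11, and glycogen metabolism had 9 rises and 4 falls.

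Mitochondrial genes rose by modest amounts that depended on the scaling. Of 35 complex I genes 33 rose and 0 fell (median 0.40), and of 43 genes of complexes II to V 32 rose and 1 fell (median 0.33). Sdha of complex II was at 1195, 1146 and 1305 CPM in corrected muscle and 827, 835 and 884 CPM in delEx44 muscle (0.52 ± 0.094). The muscle subunit Cox6a2 was at 689, 629 and 670.1 CPM in corrected muscle and 373, 395 and 399.6 CPM in delEx44 muscle (0.77 ± 0.078). Both were higher in all corrected than in all delEx44 libraries. Fatty acid genes rose in 19 of 29 cases with 0 falls, among them the carnitine transferase Cpt2 (0.74 ± 0.084) and the acyl-CoA synthetase Acsl1 (0.71 ± 0.11). Regulators and fusion genes of mitochondria rose in 13 of 24 cases, with Mfn1 (0.63 ± 0.098) and Mfn2 (0.59 ± 0.085) among them, while Ppargc1a did not pass (61.5 ± 16.4 against 46.3 ± 11.1 CPM, 0.41 ± 0.39). Under library size alone the counts of higher and lower members were 4 and 0 for complex I, 2 and 2 for complexes II to V, 4 and 2 for fatty acid genes and 4 and 6 for the regulators, whose median turned to −0.058.

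Macrophage and monocyte genes were far lower in corrected muscle. Of 38 tested 36 fell and 1 rose, with a median of −1.91. Their summed level was 662 to 886 CPM in corrected, 2208 to 3097 CPM in delEx44 and 451 to 559.6 CPM in WT libraries, and none of the defining markers (Csf1r, Cd14, Lyz2 and Adgre1, listed as Emr1) was at 0. Their part in the other results was not tested. Mpeg1, the pore-forming protein of macrophages, was at 20.3, 25.6 and 18.4 CPM in corrected muscle, 321, 199 and 218 CPM in delEx44 muscle and 7.62, 8.48 and 12.1 CPM in WT muscle (−3.52 ± 0.27, adjusted p = 6.5e-06). Lysozyme 2 (Lyz2) was at 218, 255 and 191 CPM in corrected muscle, 1017, 694 and 652 CPM in delEx44 muscle and 120.4, 105 and 135 CPM in WT muscle (−1.83 ± 0.17). The F4/80 antigen Emr1 was at 26.6, 29.1 and 21.9 CPM in corrected muscle, 127, 85.1 and 80.5 CPM in delEx44 muscle and 14.8, 16.2 and 13.4 CPM in WT muscle (−1.91 ± 0.23). The corrected libraries lay below every delEx44 library and above every WT library in Lyz2 and Mpeg1, and delEx44 replicate 1 was the highest in all 3 genes. The growth factor receptor Csf1r (76.9 against 154 CPM, −1.001 ± 0.14) and the lipopolysaccharide co-receptor Cd14 (4.71 against 12.4 CPM, −1.39 ± 0.13) fell as well. The member that rose, Lyz1, is a close paralog of Lyz2 and was at 4.75, 7.96 and 6.597 CPM in corrected muscle and 3.76, 4.79 and 3.39 CPM in delEx44 muscle (0.69 ± 0.22, adjusted p = 0.02). Its call was lost without corrected replicate 2 or 3 (0.094 and 0.0536) or delEx44 replicate 1 or 3 (0.069 and 0.076).

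Genes of lipid-laden phagocytes, which take up debris of dead fibres, were lower as well: 18 of 20 fell and 2 rose (median −1.76). Galectin-3 (Lgals3) was at 11.6, 16.6 and 8.87 CPM in corrected muscle, 220.4, 196 and 220.1 CPM in delEx44 muscle and 5.92, 7.26 and 13.3 CPM in WT muscle (−4.098 ± 0.32). The lipid receptor Trem2 was at 1.89, 3.53 and 2.24 CPM in corrected muscle, 37.4, 25.4 and 28.4 CPM in delEx44 muscle and 0.945, 0.903 and 1.04 CPM in WT muscle (−3.57 ± 0.23). Its adaptor Tyrobp was at 15.7, 18.9 and 13.4 CPM in corrected muscle and 93.5, 64.6 and 71.2 CPM in delEx44 muscle (−2.25 ± 0.17). Corrected and delEx44 libraries did not overlap in these genes. Apolipoprotein E (Apoe) fell (298 ± 70.5 against 943 ± 301 CPM, −1.66 ± 0.25), as did lysosomal acid lipase (Lipa, −1.19 ± 0.10). Lpl, the lipoprotein lipase that muscle fibres also make (725 ± 28.9 against 437 ± 28.4 CPM, 0.73 ± 0.13), and Syngr1 (0.37 ± 0.092) were the members that rose.

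Genes of tissue-resident macrophages did not move 1 way, with 2 of 16 higher, 6 lower and a median of 0.039 (2 higher, 7 lower and −0.28 under library size alone). Timd4, a receptor for dying cells on resident macrophages, was at 3.92, 4.34 and 4.06 CPM in corrected muscle, 1.68, 1.91 and 1.68 CPM in delEx44 muscle and 2.93, 3.32 and 2.35 CPM in WT muscle (1.22 ± 0.18, adjusted p = 0.00013). Lyve1, which lymphatic vessels share, was at 34.2, 60 and 41.5 CPM in corrected muscle, 21.1, 26.2 and 31.3 CPM in delEx44 muscle and 36.5, 39.9 and 41.5 CPM in WT muscle (0.79 ± 0.20, adjusted p = 0.0076). All corrected libraries lay above all delEx44 libraries in both genes. Cd163 (0.29 ± 0.25), Cbr2 (0.069 ± 0.13) and Gas6 (0.014 ± 0.071) did not pass. Stab1, a scavenger receptor (72.5 against 171 CPM, −1.24 ± 0.13), Pf4 (−0.94 ± 0.16) and F13a1 (−0.58 ± 0.14) fell. Whether this list differed from the macrophage and monocyte list was not tested.

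Of 20 complement genes 8 fell and 1 rose. The anaphylatoxin receptor C3ar1 was at 12.96, 15.1 and 12.4 CPM in corrected muscle and 95.8, 66.1 and 70.6 CPM in delEx44 muscle (−2.52 ± 0.20), and the C1q chains C1qb (86.8 against 225 CPM, −1.38 ± 0.19) and C1qc (−1.14 ± 0.18) fell. C3 (161 ± 58.9 against 163 ± 11.5 CPM) and the inhibitor Serping1 (221 ± 44.2 against 218 ± 14.7 CPM) did not pass. C7, a component of the membrane attack complex, was at 12.3, 24.3 and 20.2 CPM in corrected muscle, 6.14, 4.86 and 5.54 CPM in delEx44 muscle and 18.8, 9.71 and 9.79 CPM in WT muscle (1.78 ± 0.29, adjusted p = 0.00059) and was the member that rose, with corrected libraries all above delEx44 libraries.

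Chemokines and their receptors fell in 18 of 28 cases and rose in 3 (median −1.15), with 1 higher under library size alone. Ccl2, which draws monocytes, was at 2.81, 1.72 and 1.55 CPM in corrected muscle and 25.5, 37.03 and 25.8 CPM in delEx44 muscle (−3.85 ± 0.83). Its receptor Ccr2 was at 14.2, 16.4 and 14.6 CPM in corrected muscle and 84.9, 70.8 and 67.1 CPM in delEx44 muscle (−2.300 ± 0.31). Every delEx44 library exceeded every corrected library in both. Cxcl16 (6.7 against 25.6 CPM, −1.93 ± 0.27) and Cxcr4 (−1.51 ± 0.20) fell, and Cxcl12, the ligand of Cxcr4, did not pass (150.5 ± 31.1 against 134 ± 11.1 CPM, 0.17 ± 0.13). Ackr3, the decoy receptor for Cxcl12 (0.53 ± 0.15), and Ccl25 (0.67 ± 0.12) rose. Cytokine and inflammasome genes fell in 20 of 28 cases and rose in 1 (Lifr, the receptor of leukaemia inhibitory factor, 0.55 ± 0.15). The inflammasome adaptor Pycard (2.68 against 10.04 CPM, −1.900 ± 0.23), the receptor Il10ra (5.75 against 23.1 CPM, −2.004 ± 0.20) and the tumour necrosis factor receptor Tnfrsf1b (14.2 against 43.3 CPM, −1.605 ± 0.14) were among the falls.

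Genes of antigen presentation through MHC class II, which macrophages, dendritic cells and B cells perform, were lower in 9 of 10 cases (median −1.502). H2-Aa was at 46.5, 52.8 and 53.04 CPM in corrected muscle, 172, 137 and 124 CPM in delEx44 muscle and 27.9, 34.5 and 24.4 CPM in WT muscle (−1.504 ± 0.16). Cd74, the invariant chain, was at 76.8, 91.9 and 90.1 CPM in corrected muscle and 271, 218 and 198 CPM in delEx44 muscle (−1.41 ± 0.15). The protease Ctss, which trims it, was at 41.8, 57 and 35.9 CPM in corrected muscle and 486, 248 and 312 CPM in delEx44 muscle (−2.96 ± 0.28). The groups did not overlap for these genes. Class I and immunoproteasome genes fell in 11 of 16 cases, such as Psmb8 (13.2 ± 1.64 against 24.3 ± 3.87 CPM, −0.88 ± 0.19) and Tap1 (12.7 ± 2.68 against 22.9 ± 5.14 CPM, −0.85 ± 0.23), while H2-K1 (181 ± 40.9 against 245 ± 64.3 CPM, adjusted p = 0.12) and H2-D1 (91.6 ± 20.02 against 132 ± 29.6 CPM, adjusted p = 0.0504) did not pass. Class I falls numbered 6 without corrected replicate 3, 7 without corrected replicate 1 and 6 without delEx44 replicate 1. These class I genes have near-identical relatives, so reads may be split between them.

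Lymphocyte and neutrophil transcripts were scarce. In the list of 25 lymphocyte genes (T, B and natural killer cells) 15 fell and 0 rose. The falls numbered 8 without delEx44 replicate 1 and 10 without corrected replicate 3. Klrk1, the activating receptor of natural killer cells, had 19, 20 and 18 counts in corrected and 120, 95 and 73 counts in delEx44 muscle (−1.94 ± 0.28). The B cell chain Cd79a had 7, 1 and 4 counts in corrected and 3, 5 and 7 counts in delEx44 muscle and did not pass. Summed lymphocyte levels were 19.1 to 20.2 CPM in corrected and 26.8 to 39.8 CPM in delEx44 libraries. Of 13 neutrophil genes 2 fell, the receptors Csf3r (1.78 against 13.8 CPM, −2.94 ± 0.49) and Cxcr2 (−3.72 ± 0.96), and the list summed to 7.61 to 12.4 CPM in corrected, 26.6 to 54.97 CPM in delEx44 and 5.05 to 297 CPM in WT libraries, where replicate 3 was the highest. Without that library 6 of 13 fell, and with only the 6 corrected and delEx44 libraries fitted 6 of 8 did. S100a8 had 20, 3 and 17 counts in corrected and 229, 84 and 371 in delEx44 muscle and did not pass (adjusted p = 0.17).

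Interferon response genes fell in part, in a number that single libraries set, and their median level in corrected muscle was above that in WT. Of 39 tested 20 fell and 0 rose (median −0.48), while against WT the list's median was 0.79 with no member past the threshold. The number of falls was 5 without delEx44 replicate 1, 6 without corrected replicate 3 and 12 without corrected replicate 1. It was 12 with no filter on low counts and 32 under library size alone. Mx1, an antiviral GTPase, was at 4.13, 4.37 and 3.595 CPM in corrected muscle, 18.1, 8.95 and 11.01 CPM in delEx44 muscle and 1.01, 1.19 and 1.87 CPM in WT muscle (−1.65 ± 0.33, adjusted p = 0.0018). Oasl1 was at 6.08, 6.21 and 3.73 CPM in corrected muscle, 12.8, 7.92 and 9.91 CPM in delEx44 muscle and 1.45, 1.52 and 2.47 CPM in WT muscle (−0.93 ± 0.25). Corrected libraries lay between delEx44 and WT libraries in both genes. Oas1a (6.01 against 12.3 CPM, −1.03 ± 0.28) and Trim30a (24.2 against 45.1 CPM, −0.90 ± 0.21) fell too, though both have close copies and their counts are uncertain. Isg15, a ubiquitin-like modifier, was at 12.4, 11.9 and 6.102 CPM in corrected muscle, 24.1, 13.8 and 18.2 CPM in delEx44 muscle and 4.19, 4.55 and 6.01 CPM in WT muscle (−0.88 ± 0.33, adjusted p = 0.05). Ifit1, which binds viral RNA, was at 18.8, 21.3 and 13.8 CPM in corrected muscle, 32.6, 19.4 and 20.2 CPM in delEx44 muscle and 8.53, 8.41 and 9.31 CPM in WT muscle (−0.42 ± 0.27, adjusted p = 0.22). Neither passed, Isg15 lying just over 0.05, and in Ifit1 the corrected and delEx44 libraries overlapped.

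Many genes of the list share a promoter element, which is why the sequences are shown. Interferon-stimulated response elements bind the factors that interferon activates, and the motif of GAAA, any 2 bases and GAAA again (either strand) occurred within 250 bases before to 50 bases after the start site in 17 of 28 interferon list genes with a RefSeq promoter (60.7%), against 3.44% of all 32851 promoters and 3.81% of the 11189 genes tested that have one. A match is a description of the letters. The motif of the muscle factors MEF2 (CTA, any 4 bases and TAG) was searched in the same way in the fast fibre list and was in 0 of 12 promoters (0.0%), against 3.69% of all promoters and 3.82% of the tested genes, which says only that these letters are not in this window. The examples Isg15 and Ifit1 were read from RefSeq on GRCm38.p6, as the 150 bases before the start site with matches in capitals. Isg15 is at chr4:156200819-156200968 (minus strand) and Ifit1 at chr19:34640739-34640888 (plus strand).
Isg15: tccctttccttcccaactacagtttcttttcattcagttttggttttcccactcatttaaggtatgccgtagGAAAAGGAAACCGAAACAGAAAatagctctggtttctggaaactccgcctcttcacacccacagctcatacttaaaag
Ifit1: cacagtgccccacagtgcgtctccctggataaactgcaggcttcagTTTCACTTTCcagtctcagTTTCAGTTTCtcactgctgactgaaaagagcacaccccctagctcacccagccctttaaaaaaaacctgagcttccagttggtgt
In Isg15 the matches overlap in 1 run in the direction of transcription, whereas in Ifit1 2 separate matches lie on the opposite strand.

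Cell cycle genes fell almost without exception, 36 of 38 with 0 rises and a median of −1.26. Top2a, the topoisomerase of dividing cells, was at 23.2, 16.2 and 13.3 CPM in corrected muscle, 47.98, 47.5 and 40.4 CPM in delEx44 muscle and 11.4, 20.5 and 28.9 CPM in WT muscle (−1.36 ± 0.30, adjusted p = 0.0035). Mcm6, part of the replicative helicase, was at 11.8, 9.01 and 8.31 CPM in corrected muscle and 27.6, 29.5 and 28.5 CPM in delEx44 muscle (−1.55 ± 0.20). The mitotic cyclin Ccnb1 was at 2.94, 1.86 and 1.78 CPM in corrected muscle and 7.01, 6.52 and 5.44 CPM in delEx44 muscle (−1.52 ± 0.26). In each the corrected libraries were below the delEx44 libraries, and Top2a in corrected muscle overlapped WT. Rrm2 (4.31 against 15.3 CPM, −1.82 ± 0.39), Cdk1 (5.02 against 15.5 CPM, −1.62 ± 0.39), Cdc20 (3.54 against 8.15 CPM, −1.199 ± 0.22) and Kif11 (7.28 against 15.9 CPM, −1.12 ± 0.25) fell, while Aurka (0.071 ± 0.14) and Ccne2 (−0.19 ± 0.12) did not pass. Whole muscle does not show which cells divided.

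Many cell cycle promoters carry a pair of short elements, the CCAAT box (CCAAT) and the cell cycle homology region (CHR, TTTGAA), on either strand. Of 32 list genes with a RefSeq promoter, 14 held both (43.8%), against 6.95% of all promoters and 5.88% of the tested genes. The CCAAT box, with or without a CHR, was found in 25 (78.1%, against 37.4% and 42.3%) and the CHR in 15 (46.9%, against 17.9% and 14.4%). Cdc20 (chr4:118437344-118437493, minus strand), Cdk1 (chr10:69352913-69353062, minus strand) and Kif11 (chr19:37376232-37376381, plus strand) are shown as the 150 bases before the start site on GRCm38.p6, with both motifs in capitals.
Cdc20: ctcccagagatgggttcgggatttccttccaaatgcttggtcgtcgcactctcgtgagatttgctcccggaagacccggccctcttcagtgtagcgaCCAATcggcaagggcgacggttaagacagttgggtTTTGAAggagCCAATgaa
Cdk1: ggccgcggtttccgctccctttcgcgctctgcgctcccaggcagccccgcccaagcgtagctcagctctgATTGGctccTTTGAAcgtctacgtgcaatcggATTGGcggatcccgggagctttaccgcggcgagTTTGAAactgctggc
Kif11: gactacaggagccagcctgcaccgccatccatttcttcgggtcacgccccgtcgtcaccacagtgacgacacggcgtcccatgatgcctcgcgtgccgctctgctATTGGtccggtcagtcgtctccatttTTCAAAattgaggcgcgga
In Kif11 both motifs are on the opposite strand, in Cdk1 the CCAAT boxes are, and in Cdc20 all matches read forwards.

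Many genes of the extracellular matrix fell in corrected muscle, while those of collagen I did not pass. Of 20 collagen genes 10 fell and 0 rose (median −0.36). Col3a1 was at 3511, 4511 and 3632 CPM in corrected muscle, 5660, 5588 and 5112 CPM in delEx44 muscle and 3321, 3485 and 3404 CPM in WT muscle (−0.49 ± 0.14, adjusted p = 0.012). Corrected replicate 2 was the highest of its group, still below every delEx44 library. Col1a1 (1632 ± 284 against 1907 ± 252 CPM, −0.22 ± 0.21) and Col1a2 (2640 ± 413 against 2939 ± 378 CPM, −0.15 ± 0.19), the chains of collagen I, did not pass. Col8a1 (32.9 against 95.5 CPM, −1.54 ± 0.21), Col14a1 (83.3 against 165 CPM, −0.98 ± 0.14) and Col5a2 (344 against 562 CPM, −0.71 ± 0.11) fell. By library size alone 17 of the 20 were lower.

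Among 30 matrix glycoproteins and proteoglycans 19 fell and 0 rose (median −0.63). Periostin (Postn), a matrix protein of activated fibroblasts (chr3:54361109-54391037), was at 187, 218 and 155 CPM in corrected muscle, 1265, 699 and 842 CPM in delEx44 muscle and 139.6, 213 and 176 CPM in WT muscle (−2.33 ± 0.28, adjusted p = 7.7e-05). Its corrected libraries overlapped WT and lay far below delEx44, where replicate 1 was the highest. Ltbp2 (1.47 against 9.88 CPM, −2.75 ± 0.36), asporin (Aspn, 107 against 207 CPM, −0.95 ± 0.15), lumican (Lum, 184 against 334 CPM, −0.86 ± 0.097) and fibronectin (Fn1, 416 against 723 CPM, −0.80 ± 0.17) fell, while Sparc (2395 ± 352 against 2373 ± 161 CPM) and decorin (Dcn, 1220 ± 106 against 1183 ± 70.3 CPM) did not pass.

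Matrix proteases and their inhibitors fell in 15 of 25 cases and rose in 3. Falls numbered 9 without corrected replicate 3 and 10 without delEx44 replicate 1 or 2. The leukocyte metalloprotease Adam8 was at 2.997, 3.09 and 2.28 CPM in corrected muscle and 37.1, 41.5 and 41.1 CPM in delEx44 muscle (−3.83 ± 0.32). The inhibitor Timp1 was at 6.64, 6.53 and 4.72 CPM in corrected muscle and 43.1, 30.4 and 46.1 CPM in delEx44 muscle (−2.74 ± 0.50). The urokinase receptor Plaur was at 1.65, 1.603 and 1.72 CPM in corrected muscle and 6.93, 8.45 and 5.93 CPM in delEx44 muscle (−2.100 ± 0.26). No corrected library reached a delEx44 library in these. Serpine2 rose (151 against 91.8 CPM, 0.72 ± 0.079), as did Adamts1 and Timp4, whose calls were lost without delEx44 replicate 1 (adjusted p = 0.17 and 0.063) and corrected replicate 3 (0.14 and 0.084). Adamts1 also lost its call without corrected replicate 1 (0.11) or delEx44 replicate 3 (0.11), and Timp4 without delEx44 replicate 2 (0.066). 

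In the transforming growth factor pathway 6 of 28 rose and 7 fell (3 and 15 under library size alone). With TMM this was near the shares over all genes, of which 22.1% rose and 24.2% fell. The ligand Tgfb1 was at 13.2, 10.1 and 10.8 CPM in corrected muscle and 30.8, 25.4 and 24.4 CPM in delEx44 muscle (−1.24 ± 0.11). Smad3, which carries the signal to the nucleus, was at 129, 165 and 169 CPM in corrected muscle and 72.4, 92.2 and 81.96 CPM in delEx44 muscle (0.91 ± 0.12). Tgfbi, a matrix protein that the ligand induces, fell (−0.94 ± 0.11), and the activin receptor Acvr2b rose (0.86 ± 0.16). Tgfb1 and Smad3 did not overlap between the groups.

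Markers of the matrix-producing cells themselves passed somewhat less often than all genes, of which 22.1% rose and 24.2% fell. Of 18 fibro-adipogenic progenitor genes 3 rose and 3 fell (median 0.014), against 0 and 8 under library size alone. The falls numbered 1 without corrected replicate 1 or delEx44 replicate 2. Pdgfra, their defining receptor, was at 74.2, 81.9 and 79.2 CPM in corrected muscle and 92.98, 101 and 94.3 CPM in delEx44 muscle (−0.29 ± 0.092, adjusted p = 0.018, 0.068 without corrected replicate 1 and 0.056 without delEx44 replicate 2). Pi16, of fibroblasts around vessels, was at 95.6, 161 and 87.4 CPM in corrected muscle and 84.8, 86.7 and 72.5 CPM in delEx44 muscle and did not pass (0.50 ± 0.20). The list summed to 1144 to 1417 CPM in corrected and 1214 to 1281 CPM in delEx44 libraries. Tendon and cartilage genes summed to 1109 to 1573 CPM in corrected, 1827 to 2090 CPM in delEx44 and 1290 to 2224 CPM in WT libraries, with 4 of 17 lower, among them Cilp (163 against 393 CPM, −1.27 ± 0.21) and thrombospondin 4 (Thbs4, 431 against 770.3 CPM, −0.84 ± 0.23), and with Tnmd (−0.39 ± 0.21) and Comp (−0.15 ± 0.32) not passing. With TMM the share of tendon and cartilage genes that fell was near that over all genes. Under library size alone 7 were lower. Their part in the matrix results was not tested.

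Schwann cell and myelin genes were higher in corrected muscle, 12 of 17 with 0 falls (median 0.78). Periaxin (Prx), a protein of the myelin sheath, was at 19.4, 14.98 and 15.7 CPM in corrected muscle, 8.84, 11.3 and 8.62 CPM in delEx44 muscle and 14.4, 19.6 and 13.2 CPM in WT muscle (0.80 ± 0.16, adjusted p = 0.0012). Myelin basic protein (Mbp) was at 48.2, 41.8 and 43.8 CPM in corrected muscle and 22.2, 27.5 and 24.3 CPM in delEx44 muscle (0.86 ± 0.19). Corrected libraries were above delEx44 libraries in both genes. The list summed to 304 to 344 CPM in corrected, 197 to 232 CPM in delEx44 and 277 to 391 CPM in WT libraries. Its part in the junction results was not tested. Under library size alone 7 were higher and 1 lower.

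Few vessel genes passed: 3 of 28 rose and 1 fell (1 and 4 under library size alone). With only the 6 corrected and delEx44 libraries fitted 5 rose. Pecam1 (139 ± 15.7 against 125 ± 10.7 CPM) and Cdh5 (170.2 ± 21.2 against 162 ± 22.99 CPM), which define endothelium, did not pass. The smooth muscle myosin Myh11 rose (67.8, 71.4 and 72.03 CPM in corrected muscle and 37.97, 44.6 and 37.3 CPM in delEx44 muscle, 0.82 ± 0.12), as did the growth factor receptor Flt1 (0.54 ± 0.14) and Vegfb (0.39 ± 0.11), and Pdpn, of lymphatic vessels and activated fibroblasts, fell (18.1 against 34.1 CPM, −0.91 ± 0.17). The Myh11 libraries did not overlap. Adipocyte genes had a median of 0.93, yet 1 of 18 passed (Acacb, an acetyl-CoA carboxylase that muscle also makes, 0.96 ± 0.093), and single libraries varied widely. Rises numbered 7 of 17 with only the 6 corrected and delEx44 libraries fitted, 4 with DESeq2 and 3 without WT replicate 3. Adipoq was at 46.4, 41.6 and 26.6 CPM in corrected muscle, 12.9, 19.8 and 25.6 CPM in delEx44 muscle and 29.9, 15.9 and 82.8 CPM in WT muscle (adjusted p = 0.3). The desaturase Scd1 was at 290.4, 248.9 and 82.9 CPM in corrected muscle and 42.96, 85.3 and 42.4 CPM in delEx44 muscle (adjusted p = 0.094). Ucp1, of brown fat, was at 39.2, 14.3 and 0.726 CPM in corrected muscle and 0.0213, 1.09 and 0.146 CPM in delEx44 muscle (adjusted p = 0.069). Corrected and delEx44 libraries overlapped for Scd1 and Ucp1. The list summed to 1177 to 1723 CPM in corrected, 727 to 972 CPM in delEx44 and 1490 to 4159 CPM in WT libraries, with every corrected library above every delEx44 library, and its part in the rise of fatty acid genes was not tested.

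**Figure D5:**
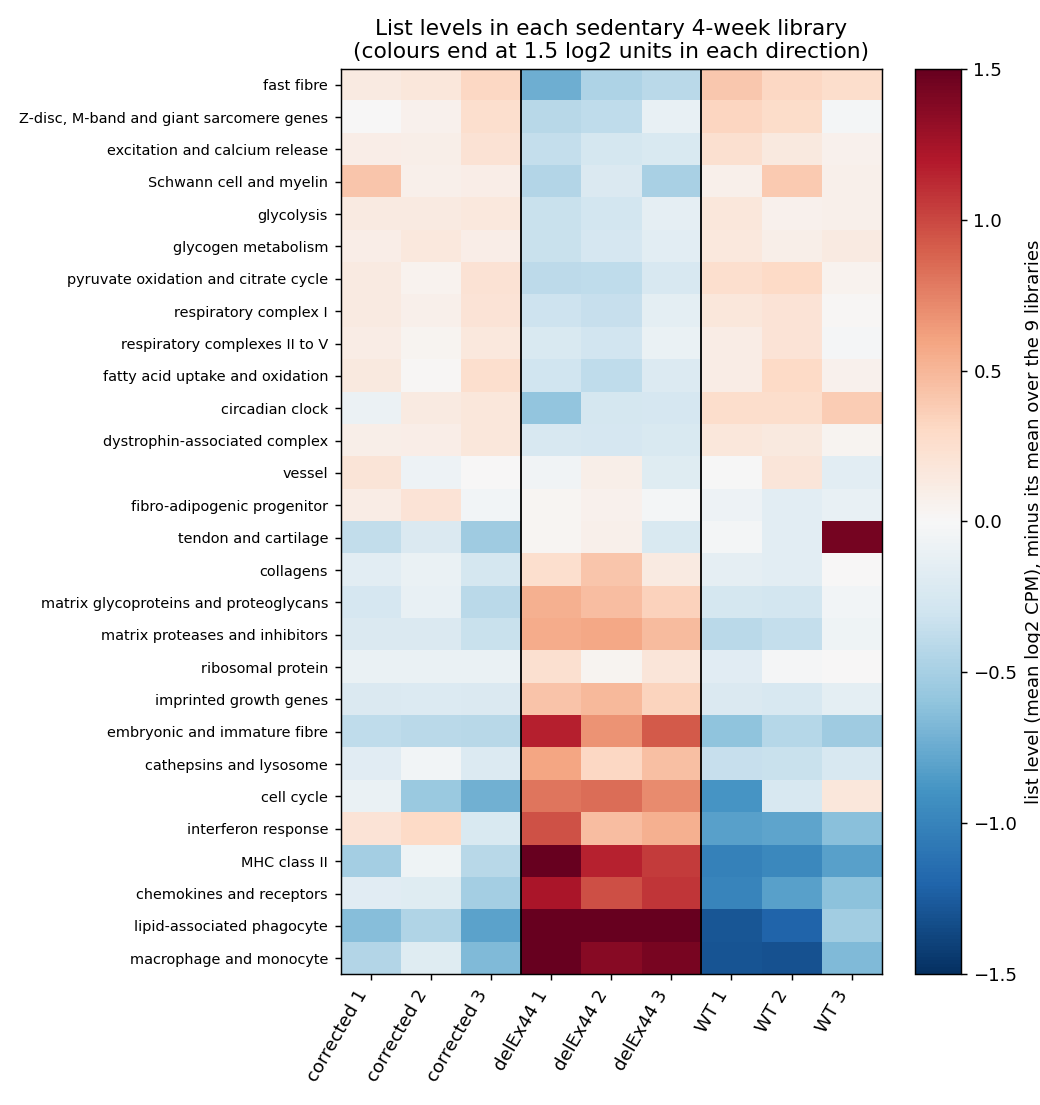
Level of 28 gene lists (mean log2 CPM of the members) in each of 9 sedentary 4-week libraries, minus the list's mean over them, with colours ending at 1.5 log2 units. Corrected libraries stand below delEx44 libraries and above WT replicates 1 and 2 for the interferon, MHC class II, chemokine, phagocyte and macrophage lists and near WT for most fibre lists, and WT replicate 3 stands apart in the tendon and cartilage list.

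Genes outside every list with the smallest p-values add changes of basic cell machinery. They were chosen by p-value, so separation of their groups was set by the choice, and 58.7% of all genes did not overlap. Aimp2, a scaffold of the aminoacyl-tRNA synthetase complex, was at 232, 252 and 216 CPM in corrected muscle and 81.2, 88.4 and 102 CPM in delEx44 muscle (1.36 ± 0.085, adjusted p = 7.4e-07). Protein kinase C alpha (Prkca) was at 122, 138 and 132 CPM in corrected muscle and 59.2, 65.5 and 69.2 CPM in delEx44 muscle (1.02 ± 0.075). Corrected libraries were above delEx44 libraries in both. Svip (0.94 ± 0.061), Dhrs7c, a dehydrogenase of the sarcoplasmic reticulum (0.84 ± 0.064), Ppm1l, a protein phosphatase (0.96 ± 0.074), Abcb4, a phospholipid transporter (1.14 ± 0.092), Atg9a, of autophagosome formation (0.76 ± 0.062), and Gid4, of a ubiquitin ligase (0.90 ± 0.074), rose by similar amounts. Of the falls, Cstb, an inhibitor of cathepsins, was at 13.3, 11.9 and 10.6 CPM in corrected muscle and 42.8, 37.3 and 41.1 CPM in delEx44 muscle (−1.76 ± 0.10, adjusted p = 5.8e-07). Lat2, a leukocyte adaptor, was at 2.11, 2.42 and 2.21 CPM in corrected muscle and 19.1, 17.9 and 17.96 CPM in delEx44 muscle (−3.03 ± 0.20). The peptidase Anpep was at 19.4, 22 and 18.4 CPM in corrected muscle and 55.8, 51.2 and 49.3 CPM in delEx44 muscle (−1.39 ± 0.092). The groups did not overlap in these genes. Pld3 (−1.31 ± 0.078), Sh3bgrl3 (−1.44 ± 0.085), Vat1 (−1.11 ± 0.068), the septin Sept9 (−1.01 ± 0.063) and Actn1 also fell.

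Against WT of the same age, corrected muscle had no gene past the threshold in the edgeR fit. It called 0 of 15013 genes, with 1497 (9.97%) at an unadjusted p under 0.05, while DESeq2 called 220 and limma-voom 0. Without corrected replicate 3 edgeR called 68, and without any other single corrected or WT library it called 0. Dmd in corrected muscle was −0.43 ± 0.079 log2 units from WT (adjusted p = 0.12), Myh4 −0.25 ± 0.14 and Lyz2 0.88 ± 0.17 (adjusted p = 0.12). The medians of list members, corrected minus WT, were 0.70 for macrophage and monocyte, 0.79 for interferon response, −0.16 for fast fibre and −0.18 for cell cycle genes. Both comparisons share the corrected libraries.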

How the data were processed

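RNA of quadriceps from the study's mice was sequenced and counted per gene by the submitters. The deposited table holds raw counts per gene, and the records it also lists for reads with no gene (29.8% to 33.9% of a library) were left out of totals and tests. Per the submitters' processing notes, the tools were STAR 2.7.2b and Bowtie2 2.3.4.3, with HTSeq, edgeR, SAMtools 1.9 and Trim Galore, and the genome build was mm10. Annotation and strand setting of the counting were not stated (not given in the sources used here), so reads of overlapping or antisense genes, and of near-identical copies, may be assigned to either gene.

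The members of the comparison and all gene lists were chosen with earlier results of these data known. The counts of 15 libraries of 1 table (9 sedentary at 4 weeks, 6 run at 8 weeks) were fitted together with edgeR 4.0.16 in R 4.3.3, using filterByExpr, TMM factors, 1 mean per group and the robust quasi-likelihood F-test. This left 15013 of 24062 genes. P-values were adjusted by Benjamini-Hochberg over all of them, and every adjusted p in the text comes from this fit unless another tool is named. All tests were two-sided. Standard errors are the log2 fold change divided by the square root of F. List levels are mean log2 CPM with a prior count of 2, and lists carry no test. Of 1241 list genes 1236 were in the table, 10 of them under an older symbol, and 1207 were tested. Genes were named by a rule (largest, most abundant and most significant changes, and defining or leading (by p or level) members of each list). The largest changes were taken only among genes whose corrected and delEx44 libraries did not overlap. Some genes that the rule names are not reported here. Any further gene named in the text, and the pairs of gene forms, were chosen after their values were seen. Myosin shares used reads per kilobase of union exon length. The fitting code was tested on simulated counts, and DESeq2 1.42.0, limma-voom 3.58.1, other scalings and filters, fewer libraries and each library left out in turn were run as alternatives.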

Additional observations from a re-analysis of the deposited data

How the results depend on the processing

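With TMM or either other normalization factor, another filter on low counts, fewer libraries in the fit, DESeq2 or limma-voom, the number of genes that passed stayed within 1.5 times of 6945. Leaving out 1 corrected or delEx44 library gave 5321 to 6426 genes, lowest without delEx44 replicate 1. Library size alone turned the split to 869 higher and 7722 lower genes, and to 145 higher list members, against 333 with TMM. It also gave Capn1 a log2 fold change of −0.0203, Dysf −0.096, Utrn −0.26, Dag1 −0.23, Dcn −0.28, Des −0.30, Atf4 −0.24 and Gas6 −0.31, all above 0 with TMM. Which scaling is nearer the true RNA content was not tested, since no spike-in is used here. Of 241 genes of the text that passed, 17 lost the call under at least 1 of the 15 alternatives other than library size alone, 15 only under library size alone, and 209 passed in all that tested them. Against WT, DESeq2 called 220 genes, 38 of them among the genes named by the rule, and without corrected replicate 3 edgeR called 68, 7 of them so named. The other alternatives called 0, and the cause was not tested. The share of Myh4 among heavy chains was 85.5% to 86.4% in corrected, 80.1% to 81.2% in delEx44 and 88.6% to 89.3% in WT muscle under all settings tried. The Myh8 share moved more with the length used. In delEx44 muscle it was 0.325% by union exon and 0.613% by longest transcript length. No paired analysis was possible because the groups share no replicate numbers in the labels. Genes of under about 1 CPM rest on few counts per library, and with 3 libraries a group the calls of variable genes depend on single libraries.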

Other observations

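Further groups of genes were compared between corrected and delEx44 muscle. Of 19 circadian clock genes 8 rose and 0 fell. Nr1d1, a repressor of the clock, was at 162, 131 and 141 CPM in corrected muscle, 68.9, 69.2 and 59.4 CPM in delEx44 muscle and 117, 141 and 167 CPM in WT muscle (1.14 ± 0.27, adjusted p = 0.0058). All corrected libraries were above all delEx44 libraries. Bhlhe41 (0.76 ± 0.17) rose, while Per1 (44.6 ± 25.2 against 40.9 ± 27.99 CPM), Per2 (3.36 ± 1.92 against 4.92 ± 1.24 CPM) and Arntl (40.8 ± 13.4 against 31.99 ± 2.76 CPM) did not pass. The hour of collection is not given in the sources used here. With library size alone 4 were higher and 0 lower.

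Genes of muscle protein breakdown and autophagy rose in 11 of 20 cases with 0 falls, against 6 rises and 2 falls under library size alone. Capn3, the muscle calpain, was at 233, 229 and 250.1 CPM in corrected muscle and 119.7, 134 and 138 CPM in delEx44 muscle (0.86 ± 0.087), and the corrected libraries were the higher ones. Fbxo40 (264 against 151 CPM, 0.81 ± 0.11), Fbxo31 (0.81 ± 0.12) and Trim54 (280.3 against 161 CPM, 0.80 ± 0.12) rose, whereas the ubiquitin ligases of wasting Fbxo32 (102 ± 6.41 against 99.3 ± 22.3 CPM) and Trim63 (245 ± 42.6 against 195 ± 51.1 CPM) did not pass. Lysosomal genes, which macrophages hold in large amounts, fell in 17 of 24 cases and rose in 2. Legumain (Lgmn) was at 102, 116 and 92.02 CPM in corrected muscle and 341, 263 and 307 CPM in delEx44 muscle (−1.55 ± 0.13), with corrected below delEx44 libraries. Tfeb, the regulator of lysosome genes, rose (55.5 ± 2.58 against 40.2 ± 1.51 CPM, 0.46 ± 0.061). Of 31 proteasome genes 6 rose and 1 fell, against 0 and 27 under library size alone. Over all genes 22.1% rose and 24.2% fell, so neither share was higher in this list with TMM. The rises numbered 0 without corrected replicate 3, 3 without corrected replicate 2, 0 without delEx44 replicate 1 and 1 without delEx44 replicate 2.

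Protein synthesis and stress genes were lower in part. Of 48 ribosomal protein genes 34 fell and 1 rose, with a median of −0.28. Genes of the integrated stress and unfolded protein responses fell in 11 of 29 cases and rose in 4 (17 and 0 under library size alone). Psat1 of serine synthesis was at 10.5, 11.9 and 8.84 CPM in corrected muscle and 29.9, 25 and 25.2 CPM in delEx44 muscle (−1.36 ± 0.17). No corrected library reached a delEx44 library. Mthfd2 (7.63 against 18.5 CPM, −1.28 ± 0.24) and the chaperones Hspa5 (327 against 497 CPM, −0.60 ± 0.14) and Hsp90b1 (317 against 474 CPM, −0.58 ± 0.14) fell, while Atf4 did not pass (166 ± 8.84 against 156 ± 13.1 CPM). In the p53 and cell cycle arrest list 11 of 26 fell and 6 rose (15 and 1 under library size alone). Pmaip1, which promotes cell death, was at 1.08, 0.874 and 0.462 CPM in corrected muscle and 6.72, 2.81 and 3.15 CPM in delEx44 muscle (−2.37 ± 0.41), whereas Ccng1, another p53 target, was at 1607, 1539 and 1654 CPM in corrected muscle and 908, 946 and 1106 CPM in delEx44 muscle (0.70 ± 0.086). The corrected libraries of Pmaip1 were all lower and those of Ccng1 all higher. Trp53 itself did not pass (22.7 ± 2.77 against 26.8 ± 1.25 CPM). Among 25 antioxidant genes 9 rose and 5 fell (2 and 14 under library size alone), with Sod2 higher (337 against 216 CPM, 0.64 ± 0.089) and Gpx1 lower (73.7 against 138 CPM, −0.90 ± 0.14). The antioxidant falls numbered 8 without delEx44 replicate 2. In polyamine metabolism the synthase Sms rose beside Smox (93.3 against 53.5 CPM, 0.80 ± 0.090), while Srm (−0.73 ± 0.14) and Sat1 (−0.84 ± 0.16) fell. Of 21 immediate early genes 2 fell and 0 rose, with Jun (72.2 ± 13.6 against 64.6 ± 5.6 CPM) and Egr1 (33.5 ± 33.9 against 29.1 ± 19.1 CPM) not passing. The falls numbered 6 without corrected replicate 1 and 5 under library size alone.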
